A study of Rattus norvegicus with 90 samples.

Results

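Heart-restricted transcripts were defined here as transcripts whose level in the hearts of vehicle-treated rats far exceeded that in their livers and kidneys. A transcript had to have a mean level in vehicle heart at least 20 times both its vehicle liver mean and its vehicle kidney mean, each raised by 0.1 TPM. TPM is a target's share of all targets in a library, corrected for length, where the targets are transcripts and genomic intervals. Of 40071 transcripts, 406 passed, and the 200 with the highest heart mean are described. Vehicle rats of both times entered the means, 10 hearts, 10 kidneys and 9 livers. The liver library MS-1 was left out. The transcripts were thus chosen by their TPM in vehicle rats, and those levels are given as a description without a test.

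RNA-seq was performed on poly-A RNA from the liver, kidney and heart of male Sprague-Dawley rats. The rats received thioacetamide intraperitoneally at 25 mg/kg (low dose) or 100 mg/kg (high dose), or saline alone at 3 ml/kg (vehicle), and their organs were taken after 8 or 24 h. Each of the 18 groups of organ, dose and time had 5 rats, giving 90 libraries of 16332764 to 36303248 estimated counts. All rats were without food for the last 8 h, the 8 h rats were dosed in the morning and the 24 h rats in the evening, and the rats had been bought at 10 weeks of age. Whole hearts and kidneys, but not livers, were ground to powder before RNA was extracted, so each heart library mixes all chambers and cell types. The 3 organs came from the same rats.

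The working cells of the heart are cardiac muscle cells, which contract without pause and devote much of their messenger RNA to a small number of proteins. These are chiefly the thick and thin filaments of the sarcomere, the pumps and channels that cycle calcium at each beat, and the mitochondrial and fatty acid enzymes that supply energy. Liver and kidney parenchyma lack sarcomeres. Thioacetamide is a liver toxicant that is converted to its reactive form mainly in the liver. The deposited files do not pair transcript identifiers with genes, so the transcripts are given by Ensembl identifier. Their roles, the known markers of each organ and cell type, and their sequences are not given here.

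The deposited libraries showed 3 features that bear on low levels in liver and kidney. MS-1, labelled liver, vehicle, 24 h, and MS-9, labelled liver, low dose, 8 h, agreed to within 1 count for 99.96% of 15797 transcripts with at least 10 counts. Results for liver at 24 h are therefore also given without MS-1. MS-91, a liver library of the high dose at 24 h, and MS-105, a kidney library of the low dose at 24 h, carried small amounts of nearly all the heart-restricted transcripts, and results that rest on them are given with and without the libraries concerned.

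In vehicle heart the 200 transcripts had mean levels from 25.98 to 16342 TPM, with a median of 76.2 TPM. The mean was at least 1000 TPM for 22 transcripts, between 100 and 1000 TPM for 64, and below 100 TPM for 114. Abundance was concentrated in few transcripts. The first 2 held 23.8% of the summed level of 119263 TPM, the first 10 held 58.2%, and the last 100 held 3.84%. The median vehicle mean was 0.0652 TPM in liver and 0.462 TPM in kidney, and 48 transcripts were below 0.1 TPM in both. The rule limits the ratio and not the level, so some transcripts were plainly present in the other organs. The vehicle kidney mean exceeded 10 TPM for 11 transcripts, up to 34.4 TPM of ENSRNOT00000028401. The vehicle liver mean exceeded it for 1, ENSRNOT00000001738, at 16.1 TPM. Kidney was the higher of the other 2 organs for 166 transcripts and liver for 29. The vehicle kidneys included MS-100 and MS-103, numbered above 90 in the sample titles, and no vehicle liver was so numbered. Traces of the heart profile in such libraries are described below, and the contrast was not made without them.

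**Figure D1:**
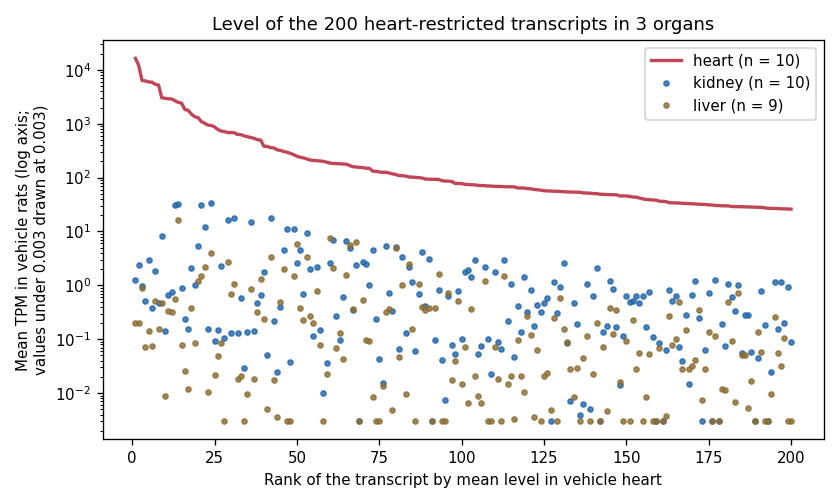
Mean TPM of each of the 200 transcripts in vehicle heart (line, 10 libraries), kidney (blue points, 10 libraries) and liver (brown points, 9 libraries), on a log axis, against rank by heart mean. The heart line falls from 16342 to 25.98 TPM, and the kidney points lie above the liver points for 166 of the 200 transcripts.

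The most abundant transcript was ENSRNOT00000050368, of 480 bases, at 16342 TPM ± 1827 (SD, n = 10). Its vehicle mean was 0.202 TPM in liver and 1.28 TPM in kidney, each carried by few libraries. Among the vehicle kidneys MS-100 had 9.48 TPM and MS-103 had 2.51 TPM, and the rest had at most 0.502 TPM. Of the vehicle livers used, only MS-4 had any, at 1.82 TPM. ENSRNOT00000006184 followed at 12007 TPM ± 836 (SD, n = 10). These transcripts kept the first and second place in all 30 heart libraries, treated ones included.

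The next 4 were close to one another in level. ENSRNOT00000024640 had 6362 TPM, ENSRNOT00000011773 had 6228 TPM, ENSRNOT00000028458 had 5959 TPM, and ENSRNOT00000023302 had 5917 TPM, with SDs between 527 and 1399 TPM that exceed the gaps between neighbours. ENSRNOT00000048044 (5393 TPM) and ENSRNOT00000050284 (5227 TPM) also lay within 1 SD of each other, as did ENSRNOT00000019679 (3024 TPM) and ENSRNOT00000011005 (2958 TPM). Of the first 10 transcripts, 8 were among the first 12 in every heart library. The exceptions included ENSRNOT00000011005, whose level varied from 599 to 6612 TPM over the 30 hearts.

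Restriction to the heart was much stronger than the limit for most transcripts. The heart mean was at least 100 times the higher of the other organs' means (plus 0.1 TPM) for 116 transcripts and at least 1000 times for 31, and the median was 174-fold. At the lower end of the list, ENSRNOT00000064850, ENSRNOT00000054629 and ENSRNOT00000046038 had 26.4, 26.03 and 25.98 TPM in heart, and the first transcripts outside it, ENSRNOT00000068278, ENSRNOT00000004693 and ENSRNOT00000066167, had 25.6, 24.9 and 24.7 TPM. Just inside the limit on the ratio were ENSRNOT00000046552 (20.03-fold) and ENSRNOT00000061284 (20.1-fold). Just outside were ENSRNOT00000064060 (19.6-fold) and ENSRNOT00000052288 (19.4-fold).

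The transcripts had a median length of 1968.5 bases, from 62 to 22488 bases. The other 2323 transcripts with a vehicle heart mean of at least 25.98 TPM had a median of 1415 bases. The list held 10 transcripts under 300 bases. In these 10 the lowest count over the vehicle hearts was between 2 and 999.

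The transcripts together took between 15.1% and 18.8% of all transcript counts in every heart library. With vehicle, their summed level was 120108 TPM ± 11179 (SD, n = 5) at 8 h and 118417 TPM ± 7543 (SD, n = 5) at 24 h. After the low dose it was 126935 TPM ± 4817 and 109855 TPM ± 15543 (SD, n = 5 each), and after the high dose 121561 TPM ± 14584 and 113673 TPM ± 6730 (SD, n = 5 each). The range of each treated group overlapped that of its vehicle group. Low sums moved with the share of all counts that fell on genomic intervals, which were among the targets of the deposited files. This share was 5.40% to 13.7% in 23 hearts and 16.8% to 21.7% in the other 7, of which 3 were low-dose hearts at 24 h. In 5 of the 6 heart groups the library with the lowest sum had the highest interval share. TPM is scaled over all targets, and intervals took between 0.929% and 4.32% of it. Scaled over transcripts alone, the sum was 122131 ± 10055 and 120760 ± 6980 with vehicle at 8 and 24 h, 128807 ± 4184 and 112912 ± 14228 after the low dose, and 123971 ± 13476 and 115872 ± 5865 after the high dose (TPM, SD, n = 5 each). The same library stayed lowest in all 6 groups, and the part of the interval share in the levels was not tested. In bulk tissue, fewer cells of a type and less RNA per cell cannot be told apart.

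**Figure D2:**
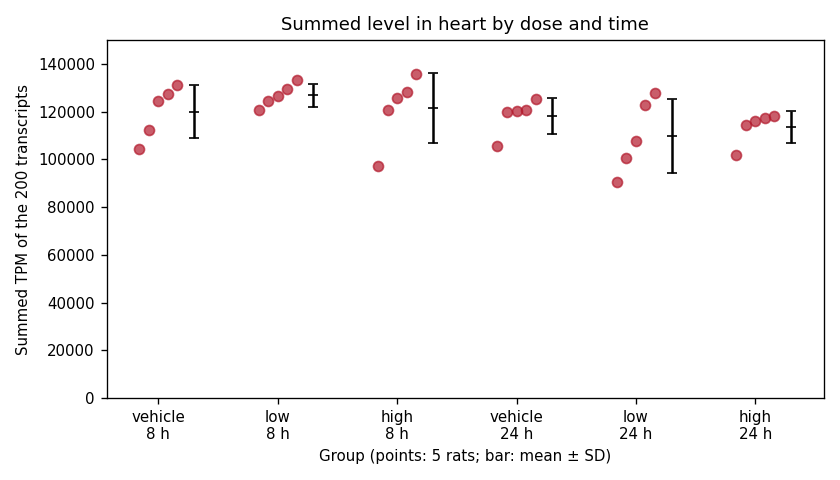
Summed TPM of the 200 transcripts (axis from 0) in each heart library, by dose and time, with 5 rats per group; bars give mean ± SD. All 30 libraries lie between 90381 and 135892 TPM and the groups overlap.

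The first question in the heart was whether thioacetamide changed these transcripts. Differentially expressed transcripts were those with a Benjamini-Hochberg adjusted p of at most 0.01 in edgeR's quasi-likelihood test and a natural-log fold change of at least 0.60 in size, which is 0.866 on the log2 scale or 1.82-fold. The vehicle groups took part in choosing the transcripts, and the treated groups did not. In hearts taken 8 h after the high dose, 0 of 197 heart-restricted transcripts tested were differentially expressed, against 0.0171% of all 17519 transcripts tested. An unadjusted p under 0.05 was found for 28 of the 197, or 14.2%, where the share over all transcripts was 9.69%, and DESeq2 also called 0. The smallest p was that of ENSRNOT00000027476, singled out after its values were seen. It had 49.7 to 59.2 TPM after the high dose and 60.5 to 69.9 TPM with vehicle, which do not overlap, and a log2 fold change of -0.32 (SE 0.047, adjusted p = 0.0382 in edgeR).

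In hearts taken 24 h after the high dose, 0 of 197 met both criteria in edgeR, against 0.922% of all 17574 transcripts tested. The vehicle and treated rats nevertheless differed in smaller ways. An unadjusted p under 0.05 was found for 81 of the 197, or 41.1%, where the share over all transcripts tested was 20.9%. The adjusted p alone was at most 0.01 for 16 of the 197, where the share over all transcripts was 2.58%. Of these, 7 were higher and 9 lower, where 1.59% of all transcripts were higher and 0.996% lower by the same criterion. These shares, and those of the other heart comparisons, are not on equal terms. The heart-restricted transcripts had a median of 3994 counts in these 10 libraries, and transcripts with at least 10 counts had a median of 223. With 1 library left out at a time, between 3 and 10 of the heart-restricted transcripts passed the adjusted p alone, where between 1.12% and 2.33% of all did. Without MS-64 and MS-66, whose interval shares were over 15%, 1 passed, against 0.761% of all. The median log2 fold change was -0.02 over the 197 and -0.0029 over all transcripts tested.

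ENSRNOT00000058312 and ENSRNOT00000019311 had the smallest p among those higher after 24 h of the high dose, and were singled out after their values were seen. ENSRNOT00000058312 had 147, 135, 152, 189 and 171 TPM with vehicle and 218, 226, 231, 224 and 229 TPM with the high dose. Every treated heart lay above every vehicle heart. Its log2 fold change was 0.52 (SE 0.069, adjusted p = 0.00178 in edgeR), under the fold limit of a call. At the low dose it had 135, 159, 199, 194 and 198.5 TPM, a log2 fold change of 0.17 (adjusted p = 0.686 in edgeR).

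ENSRNOT00000019311 had 618, 528, 555, 616 and 711 TPM with vehicle and 1013, 743, 967, 840 and 823 TPM with the high dose. Again the groups did not overlap. Its log2 fold change was 0.55 (SE 0.079, adjusted p = 0.00242 in edgeR). At 8 h after the high dose it was 0.33 (adjusted p = 0.169 in edgeR), and the change in effect between the times, 0.22 with a 95% interval from -0.02 to 0.46, had an adjusted p of 0.640 in edgeR.

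The smallest p among those lower belonged to ENSRNOT00000048687 and ENSRNOT00000022716, also singled out after their values were seen. ENSRNOT00000048687 had 123, 111, 123, 112 and 107.8 TPM with vehicle at 24 h and 88.1, 75.8, 95.5, 91.5 and 87.2 TPM with the high dose. The groups did not overlap, and the log2 fold change was -0.40 (SE 0.061, adjusted p = 0.00337 in edgeR). At 8 h it was 0.0036 (adjusted p = 0.993 in edgeR). The difference between the times, -0.40 (SE 0.089), had an adjusted p of 0.162 in edgeR and 0.00539 in DESeq2.

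ENSRNOT00000022716 had 36.4, 36.6, 38.3, 39.1 and 38.96 TPM with vehicle and 30.04, 21.8, 28.6, 27.6 and 30.3 TPM with the high dose at 24 h. The log2 fold change was -0.45 (SE 0.074, adjusted p = 0.00487 in edgeR). The sixth most abundant transcript, ENSRNOT00000023302, had 5167 to 6706 TPM with vehicle and 3856 to 5039 TPM with the high dose. It too was lower in every treated heart, with a log2 fold change of -0.36 (SE 0.063, adjusted p = 0.00655 in edgeR).

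The 10 most abundant transcripts differed among themselves. ENSRNOT00000050368 had 15274, 14236, 16308, 17472 and 15824 TPM with vehicle and 16240, 13706, 14912, 16039 and 15964 TPM with the high dose at 24 h. Its log2 fold change was -0.02 with a 95% interval from -0.14 to 0.09. ENSRNOT00000006184 had a log2 fold change of -0.03 with an interval from -0.13 to 0.08. ENSRNOT00000024640, ENSRNOT00000028458, ENSRNOT00000050284 and ENSRNOT00000019679 had log2 fold changes between -0.04 and 0.04. ENSRNOT00000048044, the seventh, was lower, with 5788, 4812, 5422, 5204 and 4907 TPM with vehicle and 4546, 4117, 4389, 4573 and 4726 TPM with the high dose. No treated heart reached a vehicle heart, and its log2 fold change of -0.22 had a 95% interval from -0.34 to -0.09 and an adjusted p of 0.0440 in edgeR. Over the 197 transcripts tested, the 95% interval lay within the fold limit in both directions for 174 (88.3%), against 75.2% of all transcripts tested. It reached past the limit for 23. These shares too are not on equal terms, given the higher counts of the heart-restricted transcripts.

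The fourth transcript, ENSRNOT00000011773, had 6021, 6983, 6409, 4271 and 4156 TPM with vehicle at 24 h and 3764, 2747, 3790, 3529 and 3362 TPM with the high dose. All treated hearts were lower than all vehicle hearts, but the vehicle hearts were spread widely. The log2 fold change was -0.71 (SE 0.17), and the adjusted p of 0.0300 in edgeR did not pass. At the low dose it had 3461, 3413, 3516, 4436 and 4230 TPM.

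**Figure D3:**
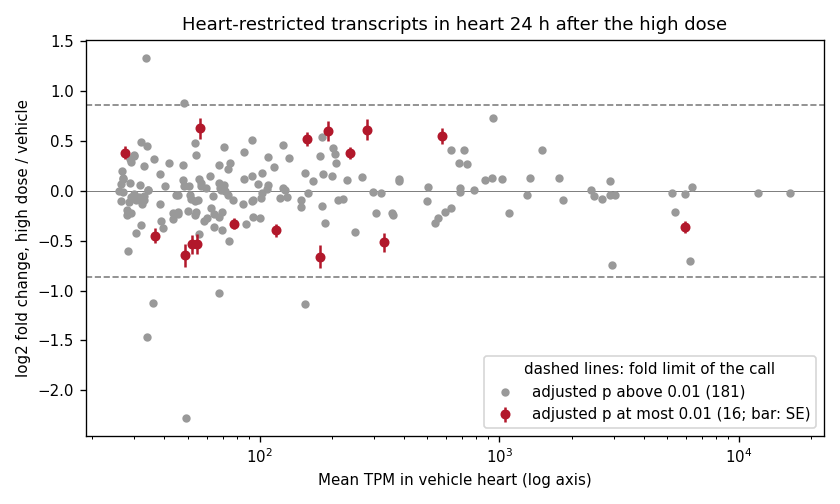
log2 fold change of 197 heart-restricted transcripts in heart at 24 h, high dose against vehicle, against the vehicle heart mean TPM on a log axis; red points have an adjusted p of at most 0.01 (bars, SE), grey points do not, and dashed lines mark the fold limit of 0.866. All 16 red points lie between the dashed lines.

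The 6 largest fold changes at 24 h belonged to short or variable transcripts, and none passed the adjusted p in edgeR. They included 3 transcripts of 62 to 116 bases with mean counts of 14.4 to 77.8 in vehicle heart. The other 3 were longer, with mean counts of 493.5 to 1086 and CVs of 64.4% to 73.5% over the vehicle hearts, and are described with the variable transcripts. ENSRNOT00000053706, of 116 bases, had 50.4, 70.8, 49.4, 37.2 and 45.7 TPM with vehicle and 16.4, 5.57, 3.82, 9.50 and 21.6 TPM with the high dose. The groups did not overlap, and the log2 fold change was -2.27 (SE 0.45, adjusted p = 0.0123 in edgeR), just short of the criterion. limma on log2(TPM + 1) gave -2.26 with an adjusted p of 0.00631, which passes. ENSRNOT00000063134, of 112 bases, had 176, 157, 163, 184 and 224 TPM with vehicle and 83.4, 136, 59.9, 79.98 and 72.9 TPM with the high dose. It was called lower by DESeq2 (log2 fold change -1.14, adjusted p = 0.000609), by limma, by edgeR without MS-66 (-1.43, adjusted p = 0.00260), and by edgeR without MS-64 and MS-66 (-1.45, adjusted p = 0.00763). Both were singled out after their values were seen.

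The low dose gave no call. The count filter removed 2 of the 200 at each time. In edgeR, 0 of the rest were differentially expressed at 8 h, where the share over all transcripts was 0%, and 9 (4.55%) had an unadjusted p under 0.05 against 3.93% of all. At 24 h 0 were called, again against 0% of all, and 39 had an unadjusted p under 0.05, of which 2 were higher and 37 lower. DESeq2 called 0 at both times. The 39 make 19.7% of those tested, where 9.17% of all transcripts had such a p, shares that are not on equal terms given the counts, as above. The median log2 fold change at 24 h was -0.07, with 65 above 0 and 133 below, where the median over all transcripts was 0.0047. It stayed between -0.07 and -0.09 under each alternative scaling or test. Without the 4 hearts of an interval share over 15%, which leaves 2 low-dose hearts, 30 had an unadjusted p under 0.05, of which 29 were lower, against 7.94% of all transcripts.

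The high and low doses were also compared directly, a contrast that the choice of transcripts did not use. At 8 h, 0 of 196 were called in edgeR, against 0.00568% of all transcripts, with 31 (15.8%) at an unadjusted p under 0.05 against 7.87% of all. DESeq2 called 1, ENSRNOT00000010539, which was higher at the high dose (log2 fold change 1.04, adjusted p = 1.27e-05). By the adjusted p alone, DESeq2 passed 3 of the 196, against 80 of all 17596 transcripts. At 24 h, 0 of 196 were called in edgeR, against 0% of all, and 0 in DESeq2. Here 40 (20.4%) had an unadjusted p under 0.05 against 11.1% of all, and 33 of the 40 were higher at the high dose. At both times these shares are again not on equal terms, given the counts. The median log2 fold change was 0.06, where the median over all transcripts was -0.0051. Among these 24 h hearts, the low-dose MS-62, MS-65 and MS-67 and the high-dose MS-66 had interval shares over 15%. Without these hearts edgeR again called 0 of 196. The part of the interval share in the split into higher and lower was not tested.

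The effect of the high dose differed between the times for 0 of 199 in edgeR, against 0.00539% of all. An unadjusted p under 0.05 was found for 38 (19.1%) against 8.38% of all, again not on equal terms given the counts. DESeq2 called 2, ENSRNOT00000048687 and ENSRNOT00000055888 (difference 0.45, adjusted p = 0.00846), against 39 of all 18543 transcripts.

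The transcripts varied unequally among vehicle hearts. The coefficient of variation (CV) of TPM over the 10 vehicle hearts had a median of 12.1%, against 10.3% over the other 2323 transcripts at or above the same level, and was over 30% for 24 of the 200 (12%) against 4.95% of the others. The steadiest were ENSRNOT00000075681, ENSRNOT00000028636 and ENSRNOT00000048030. ENSRNOT00000075681 stayed between 45.96 and 58.7 TPM in all 30 hearts. Of the 10 transcripts under 300 bases, 8 had a CV over 30%.

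The largest CV, 90.1%, was that of ENSRNOT00000054629, of 100 bases. It had 87.5, 21.2, 14.2, 32.6 and 14.98 TPM in the 24 h vehicle hearts, and a lowest count of 3.24 over the vehicle hearts. ENSRNOT00000030978 (CV 74.5%) ranged from 6.996 to 94.8 TPM over all hearts, with at least 370 counts in each vehicle heart. ENSRNOT00000008212 (CV 73.5%) had 61.01, 13.3, 63.3, 78.5 and 20.8 TPM with vehicle and 88.8, 221, 70.5, 104 and 90.7 TPM with the high dose at 24 h. Its log2 fold change was 1.33 (SE 0.47, adjusted p = 0.123 in edgeR), with the highest value in MS-66.

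A set of 7 variable transcripts moved together from heart to heart. In average-linkage clustering of the 24 transcripts with a CV over 30% (1 minus Pearson's r on log2(TPM + 1) over 30 heart libraries, cut at 0.5), ENSRNOT00000011005, ENSRNOT00000085847, ENSRNOT00000011974, ENSRNOT00000072480, ENSRNOT00000084986, ENSRNOT00000019335 and ENSRNOT00000012365 formed a single cluster, and no other cluster held more than 2. Pairwise r lay between 0.43 and 0.90 with a median of 0.76, over libraries that include all doses and times. The 7 were chosen after their values were seen, and no test was made.

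By the mean over the 7 of log2(TPM + 1), each centred on its mean over the 30 hearts, the lowest library was MS-109 (low dose, 8 h), the only heart library numbered above 90. Of the 7, 4 were at their lowest there, and ENSRNOT00000019335 had 14.3 TPM there but 6.72 TPM in MS-66. ENSRNOT00000012365 had 24.2, 7.13, 0.261, 31.9 and 27.7 TPM in that group, with 0.261 TPM in MS-109. ENSRNOT00000011005, the tenth most abundant transcript, had 3505, 3708, 599, 2445 and 1977 TPM there, with 599 TPM again in MS-109. With vehicle it had 5680, 2088, 1153, 1919 and 3207 TPM at 8 h and 5987, 1706, 3363, 2469 and 2006 TPM at 24 h, and over all 30 hearts it ranged from 599 to 6612 TPM. Without MS-109, the low dose at 8 h still had 0 heart-restricted transcripts called in edgeR.

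With the high dose at 24 h, values were lower for 3 of these variable transcripts without passing the adjusted p in edgeR. ENSRNOT00000012365 had 72.2, 7.11, 40.95, 30.6 and 15.2 TPM with vehicle and 5.25, 6.05, 15.2, 23.4 and 9.52 TPM with the high dose, a log2 fold change of -1.47 (SE 0.56, adjusted p = 0.159 in edgeR). ENSRNOT00000019335 had 85.7, 25.5, 40.6, 24.8 and 16.9 TPM with vehicle and 21.8, 6.72, 26.04, 15.9 and 18.3 TPM with the high dose (log2 fold change -1.13, SE 0.44, adjusted p = 0.163 in edgeR). For both, the groups overlapped. ENSRNOT00000011005 had 1135 to 2419 TPM with the high dose, a log2 fold change of -0.75 (SE 0.33, adjusted p = 0.230 in edgeR). The other 4 had log2 fold changes between -0.21 and -0.10 (ENSRNOT00000011974 and ENSRNOT00000084986 at the ends).

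Restriction to the heart was next followed in treated rats. The 20-fold rule, applied to the means of each treated condition, held for 192 of the 200 at 8 h after the low dose, 177 at 24 h after the low dose, 192 at 8 h after the high dose and 187 at 24 h after the high dose. Without the libraries numbered above 90, it held for 194, 174, 189 and 187. All 4 treated conditions kept 175 transcripts past the rule, and 4 transcripts fell below it in each condition. These 4 were ENSRNOT00000012365, ENSRNOT00000022387, ENSRNOT00000058312 and ENSRNOT00000061284, named after their values were seen. All 200 pass in vehicle rats by definition, so other rats can only show the same number or fewer. Vehicle ratios were at most 56.8-fold for the 4, and at most 361-fold for the 25 that fell below in at least 1 condition. The treated rats took no part in choosing the transcripts, and neither these shares nor the part of treatment in them was tested.

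At 24 h after the low dose, 19 of the 23 transcripts that fell below the rule did so against kidney. One kidney library of that group, MS-37, was high for a subset of the transcripts. It had 134.6 TPM of ENSRNOT00000025857, where the other kidney libraries apart from MS-105 reached at most 32.02 TPM, and 82.5 TPM of ENSRNOT00000019679, where they reached at most 32.4 TPM. It had 0.163 TPM of ENSRNOT00000050368, the most abundant transcript in heart.

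Traces of the heart profile were found in some libraries of the other organs. For the 22 transcripts of at least 1000 TPM in vehicle heart, the level in each liver and kidney library was expressed as a percent of the vehicle heart mean. In liver the median over the 22 was 0.50% in MS-91, 0.0566% in MS-94 and at most 0.0162% in the other 28 libraries. In kidney it was 0.305% in MS-105, between 0.0359% and 0.129% in the other 7 libraries numbered above 90, and at most 0.0640% in the 22 libraries numbered up to 90.

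In MS-91 the 22 percentages were nearly equal, with quartiles of 0.432% and 0.551%. ENSRNOT00000050368 had 74.6 TPM in MS-91 and at most 1.82 TPM in the 28 liver libraries numbered up to 90. In kidney the same transcript had between 2.51 and 45.6 TPM in the libraries numbered above 90, and at most 2.99 TPM in the rest. MS-91 had the highest level of all liver libraries for 126 of the 200 transcripts. Over the 200 transcripts, Spearman's rank correlation with the vehicle heart means was 0.80 in MS-91 and 0.68 in MS-105, where the median was 0.24 over the 28 other-numbered liver libraries and 0.26 over the 22 such kidney libraries, a description over transcripts of shared libraries.

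**Figure D4:**
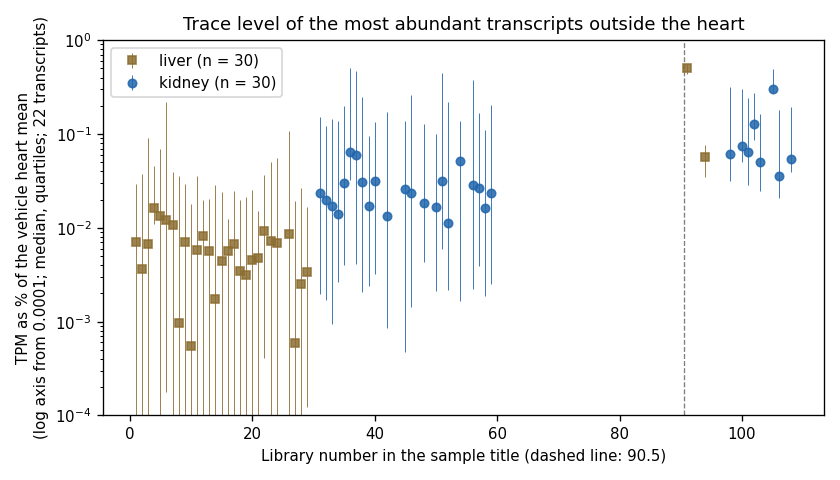
Level of the 22 most abundant transcripts in each liver (squares) and kidney (circles) library, as a percent of the vehicle heart mean, on a log axis from 0.0001, against library number; points are medians over the 22 transcripts and bars are quartiles, which can reach below the axis. MS-91 (0.50%) and MS-105 (0.305%) stand highest, and the other libraries right of the dashed line lie near the upper end of their organ.

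The library number is the number in the sample title. Of the 10 liver and kidney libraries numbered above 90, the 2 liver libraries stood above all other liver libraries in this measure, and 3 kidney libraries numbered up to 90 stood above the lowest of the 8 kidney libraries numbered above 90. What the numbers stand for is not given in the sources used here, and their part in the levels was not tested.

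In the liver most heart-restricted transcripts were too low to test. Vehicle livers and kidneys also took part in choosing the transcripts, which had to be low in them. The count filter admitted some transcripts through the treated livers or kidneys. The counts of calls in liver and kidney are therefore given as a description, and nothing is read from their split into higher and lower. In livers taken 8 h after the high dose 60 of 200 passed the count filter, and 10 were differentially expressed, which is 16.7% of those tested against 20.2% of all transcripts. Of the 10, 6 were higher and 4 lower, where 12.4% of all transcripts were higher and 7.75% lower. Of the 60, 37 would have passed the filter on the vehicle livers alone, and 4 of the 6 higher ones needed the treated livers to pass. At 24 h 11 of 66 (16.7%) were differentially expressed against 16.3% of all. Here 10 were higher and 1 lower, where 7.44% of all were higher and 8.85% lower. Of the 66, 32 would have passed on the vehicle livers alone, and 5 of the 10 higher ones needed the treated livers. Without MS-1 there were 15 (20.5%), 12 of them higher, against 26.8% of all. Without MS-91 there were 8 (12.1%), 6 of them higher, against 15.6% of all. Without both there were 20 (29.9%), 11 higher and 9 lower, against 13.7% and 14.3% of all.

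ENSRNOT00000029994 had the largest log2 fold change of those called in liver at 8 h, from very few counts with vehicle. It had 0.0665, 0.04997, 0.0489, 0.168 and 0.0365 TPM with vehicle, 4.03, 1.57, 1.06, 1.60 and 2.18 TPM with the low dose, and 4.36, 5.28, 5.72, 4.09 and 7.59 TPM with the high dose. No vehicle liver reached any treated one, and every high-dose liver was above every low-dose liver. The log2 fold change was 4.41 (SE 0.47, adjusted p = 0.000104 in edgeR) at the low dose and 6.01 (SE 0.43, adjusted p = 3.25e-06 in edgeR) at the high dose. The vehicle livers had between 2 and 8 counts each, none enough for the count filter, so the transcript was tested through the treated livers, and the size of the fold is imprecise. With no count filter the adjusted p was 8.63e-05 at the low dose and 1.26e-06 at the high dose in edgeR. That fit lifts the filter and not the choice of the transcript by its vehicle level. These vehicle livers took part in the choice, which required a low level in them relative to heart. The part of the choice in the fold change and in its p was not tested.

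At 24 h this transcript had 4.04, 0.133, 0.127, 0.0416 and 0.0305 TPM in the vehicle livers, the first being MS-1. With the high dose it had 1.05, 2.12, 1.34, 1.66 and 2.22 TPM. With MS-1 the log2 fold change was 0.59 (adjusted p = 0.662 in edgeR), and without MS-1 it was 3.26 (adjusted p = 0.000236 in edgeR), so MS-1 decided the call.

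The same transcript rose in kidney, again from 2 to 15 counts in the vehicle kidneys at 8 h. With 1 of 5 vehicle kidneys over the count filter at each time, the transcript needed the high-dose kidneys to pass. The size of the fold is therefore imprecise for this transcript in kidney too. It had 0.178, 0.319, 0.165, 0.105 and 0.0453 TPM with vehicle and 3.66, 5.45, 9.45, 7.05 and 8.33 TPM with the high dose at 8 h. The groups did not overlap, and the log2 fold change was 5.37 (SE 0.46, adjusted p = 9.11e-05 in edgeR). At 24 h it had 0.0346 to 0.234 TPM with vehicle and 1.05 to 3.02 TPM with the high dose, a log2 fold change of 3.47 (SE 0.50, adjusted p = 0.00110 in edgeR). Kidneys taken 8 h after the low dose had 0.823 to 1.33 TPM, all above the vehicle kidneys. A log2 fold change of 2.44 had an adjusted p of 0.0261 in edgeR, which did not pass, whereas DESeq2 (2.83e-06), limma on log2(TPM + 0.1) (0.00522) and edgeR without MS-100 (0.00740) gave an adjusted p that did.

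ENSRNOT00000028636 followed the same order in liver. It had 0.345, 0.287, 0.160, 0.155 and 0.179 TPM with vehicle at 8 h, 0.768 to 2.80 TPM with the low dose and 2.94 to 6.26 TPM with the high dose. The 3 ranges were separate. The vehicle livers had 9 to 19 counts each. Of these 5 livers 4 were over the count filter, so the transcript needed the treated livers to pass. The log2 fold change was 2.53 (SE 0.31, adjusted p = 0.000208 in edgeR) at the low dose and 4.18 (SE 0.31, adjusted p = 3.94e-06 in edgeR) at the high dose. In kidney at 8 h after the high dose it had 2.98 to 5.10 TPM against 1.42 to 2.16 TPM with vehicle, with an adjusted p of 0.0131 in edgeR and of 0.00323 without MS-100.

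In heart ENSRNOT00000029994 had 213, 167, 249, 177 and 197.7 TPM with vehicle and 269, 259, 242, 269 and 305 TPM with the high dose at 24 h. The groups overlapped, and the log2 fold change was 0.43 (SE 0.093, adjusted p = 0.0182 in edgeR), short of the criteria. In heart ENSRNOT00000028636 was among the 3 steadiest transcripts, between 285 and 436 TPM in all 30 libraries. Its highest value in liver was 6.26 TPM.

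**Figure D5:**
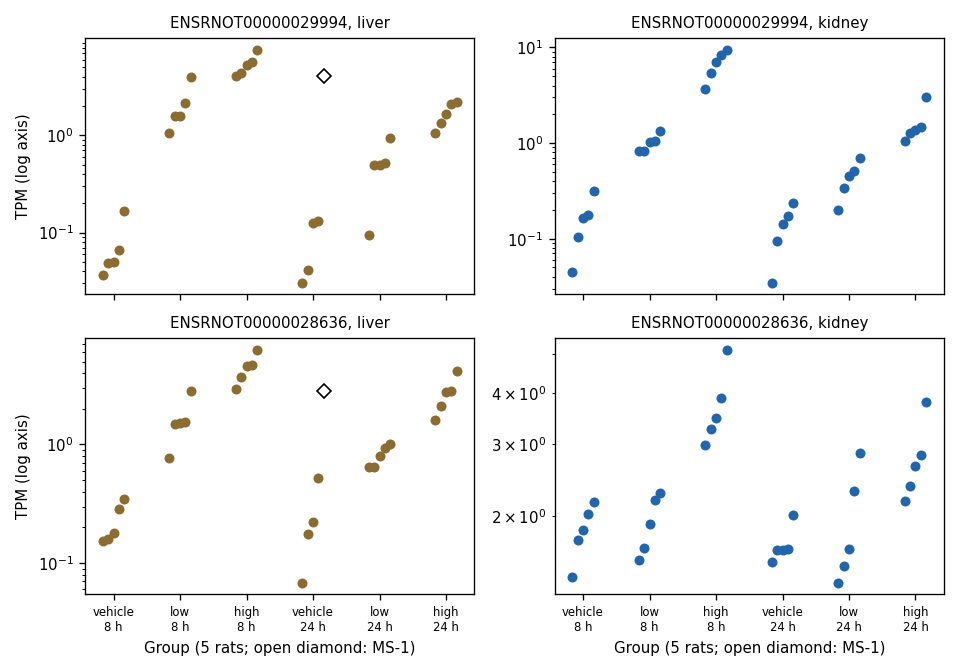
TPM (log axes) of ENSRNOT00000029994 (top) and ENSRNOT00000028636 (bottom) in liver (left) and kidney (right), by dose and time, 1 point per rat and 5 rats per group; the open diamond is MS-1. In liver at 8 h the high-dose points lie above the low-dose points, which lie above the vehicle points, for both transcripts.

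Of the transcripts that fell in liver at 8 h after the high dose, ENSRNOT00000012755 had 0.900, 0.843, 0.635, 0.763 and 0.573 TPM with vehicle and 0.0492, 0.485, 0.0763, 0.280 and 0.303 TPM with the high dose. Its log2 fold change was -1.83 (SE 0.45, adjusted p = 0.00614 in edgeR). The call was lost in 6 of the 10 fits with 1 library left out (without MS-10, MS-13, MS-28, MS-14, MS-17 or MS-27), where the adjusted p reached 0.0158 in edgeR, and under limma on log2(TPM + 1), which put the log2 fold change at -0.50. ENSRNOT00000028401 had 3.25 to 4.62 TPM with vehicle and 1.28 to 2.08 TPM with the high dose. The groups were separate for both, and the log2 fold change of the latter was -1.56 (SE 0.18, adjusted p = 5.40e-05 in edgeR).

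At 8 h after the low dose 4 of 59 were differentially expressed in liver, which is 6.78% against 9.88% of all transcripts. Of these 3 were higher and 1 lower, against 5.78% and 4.1% of all, and the 3 higher ones needed the treated livers to pass the filter. At 24 h after the low dose 1 of 61 was, ENSRNOT00000074683, against 1.91% of all. It had 3.37, 1.79, 2.26, 2.50 and 1.89 TPM with vehicle and 6.71, 8.24, 6.81, 10.9 and 7.77 TPM with the low dose. The groups did not overlap. The log2 fold change was 1.11 (SE 0.20, adjusted p = 0.00867 in edgeR), a call that was lost when any library other than MS-1 was left out. Without MS-1, 4 (5.97%) were called, 1 higher and 3 lower, against 9.04% of all.

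In livers taken 24 h after the high dose the largest rises were those of ENSRNOT00000000469 and ENSRNOT00000027237. ENSRNOT00000000469 had 0.347, 0.170, 0.0965, 0.0885 and 0.211 TPM with vehicle and 1.48, 10.3, 3.61, 7.48 and 7.29 TPM with the high dose. The value of 7.48 TPM is that of MS-91, which carried traces of the heart profile. Its log2 fold change was 4.24 (SE 0.53, adjusted p = 0.000293 in edgeR), and it was called under every alternative. With 1 library left out at a time, MS-91 included, the adjusted p was at most 0.00145 in edgeR. No alternative undoes the choice by vehicle level, in which these vehicle livers other than MS-1 took part. The vehicle livers had 4 to 13 counts of it. ENSRNOT00000027237, with 0 to 11 counts in the vehicle livers, rose from 0 to 0.0727 TPM with vehicle to 0.428 to 0.871 TPM, with a log2 fold change of 3.31 (SE 0.59, adjusted p = 0.00170 in edgeR). Its call was lost under limma on log2(TPM + 1), which put the log2 fold change at 0.60. Both transcripts needed the treated livers to pass the count filter. At 8 h after the same dose ENSRNOT00000000469 had 0.191 to 0.443 TPM.

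In kidney 1 of 114 was differentially expressed at 8 h after the high dose, the ENSRNOT00000029994 described above, against 1.49% of all transcripts. Without MS-100 there were 6 (5.26%), 5 of them higher, against 4.88% of all. At 24 h 5 of 110 were (4.55%), against 4.19% of all. There were 2 higher and 3 lower, against 2.15% and 2.04% of all, and 1 of the 2 higher ones needed the treated kidneys to pass the filter. At the low dose 0 of 111 were called at 8 h in edgeR, against 0.218% of all, with 11 (9.91%) at an unadjusted p under 0.05 against 11.9% of all. DESeq2 called 1 there. By its adjusted p alone 1 of the 111 passed, against 494 of all 18829 transcripts. At 24 h 0 of 110 were called in edgeR, against 0.0593% of all, with 13 (11.8%) at an unadjusted p under 0.05 against 11.5% of all, and 0 in DESeq2.

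The other rise in kidney at 24 h, ENSRNOT00000016947, went from 0.494, 0.282, 0.487, 0.521 and 0.474 TPM with vehicle to 1.68, 2.11, 0.721, 2.62 and 1.65 TPM (log2 fold change 1.80, SE 0.38, adjusted p = 0.00881 in edgeR). This call was lost when any library other than MS-54 was left out, the adjusted p reaching 0.0239 in edgeR, and was lost with no count filter (0.0130) and with libraries numbered up to 90 alone (0.0234). The largest falls were those of ENSRNOT00000003340 and ENSRNOT00000048687. ENSRNOT00000003340 had 0.324, 0.696, 0.456, 0.750 and 0.491 TPM with vehicle and 0.0742, 0.0584, 0.0854, 0 and 0.0550 TPM with the high dose. The groups did not overlap, and the log2 fold change was -3.46 (SE 0.53, adjusted p = 0.00145 in edgeR). This call was lost under limma on log2(TPM + 1), which put the log2 fold change at -0.54.

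ENSRNOT00000048687 was lower in kidney as well as in heart at 24 h after the high dose. Its kidney level was 0.504, 0.328, 0.305, 0.285 and 0.280 TPM with vehicle and 0.0729, 0.0320, 0.0745, 0.0936 and 0.0527 TPM with the high dose. The groups did not overlap. The log2 fold change was -2.51 (SE 0.36, adjusted p = 0.000965 in edgeR) in kidney and -0.40 in heart, where the fold limit was not reached, and the difference between the organs was not tested. The kidney call was lost under limma on log2(TPM + 1), which put the log2 fold change there at -0.33. In vehicle heart the mean of this transcript was 117 TPM.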

How the data were processed

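RNA was measured by RNA-seq in 90 rat liver, kidney and heart samples, 5 per group. The authors quantified paired reads with Kallisto (0.42.2 per the labels) against the Ensembl rat transcriptome (Rnor_6.0) and deposited estimated counts, which are not normalized, and TPM, which the authors' tool scaled by target length and to a fixed total per library over all targets. Of these targets, 25095 genomic intervals were left out of the tests, and all 40071 transcripts were kept.

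Transcripts were chosen on TPM. Estimated counts were rounded and each comparison fitted on all transcripts of its samples in R 4.3.3 with edgeR 4.0.16 (default low-count filter, TMM scaling, quasi-likelihood test, Benjamini-Hochberg adjustment). Calls needed an adjusted p of at most 0.01 and, except for the interaction, a fold change of at least 0.60 in natural-log units. Conditions were taken from the labels. The groups share vehicle rats between doses, so comparisons with vehicle at one time are not independent. Transcripts and lists were chosen with earlier results of these data known. The fits were tested on simulated data. Alternatives were DESeq2 1.42.0, its size factors in edgeR, no low-count filter, scaling without the chosen transcripts, limma 3.58.1 on log2 TPM with 1 or 0.1 added, and each sample left out. Alternatives with libraries numbered up to 90 alone, without MS-1 and MS-91, without hearts of an interval share over 15%, and all those for liver and kidney at the low dose were added after the data were seen.

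Transcripts are named if among the 10 highest vehicle heart means, the 5 largest or 3 smallest CVs, the largest fold changes called in liver or kidney (up to 5 per comparison, of which at most 2 in each direction are printed, since the identifiers have no gene names), or next to the limits of the choice. Lists of heart genes and cell type markers had been drawn up for use with gene names and could not be applied. The comparison of the vehicle hearts at 24 and 8 h is not given, since the choice used both. Clustering and sums were made in Python 3.11.15 with scipy 1.17.1. Total counts were 16332764 to 36303248 per library, so a transcript under 1 TPM in liver or kidney rests on few counts and its fold change is imprecise. The p-values treat the samples of a group as separate rats, as the study describes them.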

Additional observations from a re-analysis of the deposited data

Results flagged for a closer look

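In groups of 5, a sample was set apart when its gap to the nearest other sample exceeded 0.71 of the range of the group. Of 120 sets of 5 values looked at, 15 had such a sample, and chance gives about 1 in 20.

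For the summed level of the 200 transcripts, the lowest sample stood apart in heart at 24 h both after the high dose (MS-66, 101900 TPM) and with vehicle (MS-64, 105500 TPM). Both had the highest share of counts on genomic intervals in their group, 18.3% and 16.8%, and scaled over transcripts alone their sums were 105865 and 109160 TPM, still the lowest. The heart-restricted share of transcript counts was 16.5% in MS-66, where the group ran from 15.8% to 17.6%, and 17.2% in MS-64, where it ran from 16.7% to 18.2%, so by that measure neither stood apart. The highest stood apart in liver after the high dose at 24 h (MS-91, 715.2 TPM against at most 280.9 TPM in the rest) and in kidney after the high dose at 24 h (MS-36, 605.0 TPM). The median trace level was set apart in MS-91 (0.4997%), in MS-105 of the low-dose kidneys at 24 h (0.3045%), in MS-94 of the low-dose livers at 8 h (0.05655%) and in MS-100 of the vehicle kidneys at 8 h (0.07365%). Of these 4 libraries, all are numbered above 90.

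Single transcripts had a sample apart in heart for ENSRNOT00000008212 (MS-66, 221.2 TPM after the high dose at 24 h), ENSRNOT00000054629 (MS-61, 87.5 TPM with vehicle at 24 h) and ENSRNOT00000028636 (MS-64, 332.5 TPM with vehicle at 24 h). In kidney at 24 h this held for ENSRNOT00000029994 (MS-106, 3.024 TPM after the high dose), ENSRNOT00000048687 (MS-31, 0.5042 TPM with vehicle) and ENSRNOT00000016947 (MS-34, 0.282 TPM with vehicle), and in liver at 8 h for ENSRNOT00000029994 (MS-28, 0.1679 TPM with vehicle).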

How the results depend on the processing

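The number of heart-restricted transcripts called differed between tools and settings. Except where given, the share over all transcripts is not printed for each setting, so these counts compare settings only. In heart at 24 h after the high dose, edgeR called 0, DESeq2 1 and limma 2 under either pseudocount, and edgeR called between 0 and 1 with a library left out, the call being without MS-66. Without MS-64 and MS-66, whose interval share was over 15%, it called 1, a limit chosen after the data were seen. DESeq2 called 1 between the high and low dose in heart at 8 h and 2 in the interaction, where edgeR called 0. In liver after the high dose, limma on log2(TPM + 1) gave 6 at 8 h against 10, and limma on log2(TPM + 0.1) gave 27 at 24 h against 11. That fit called 42.4% of all transcripts, and the median log2 fold change over all was 0.92, against 0.10 in edgeR, so the changes there are not on the same footing. Leaving out a library gave 6 to 15 at 8 h, with 6 without MS-13, MS-14, MS-17 or MS-27, and 7 to 15 at 24 h, with 7 without MS-19, MS-20, MS-3, MS-6 or MS-26. Without both MS-1 and MS-91 it was 20. In liver after the low dose, limma on log2(TPM + 0.1) gave 7 at 8 h. At 24 h, where edgeR gave 1, DESeq2 size factors and no low-count filter gave 0, DESeq2 gave 3, limma gave 3 and 6 with the larger and smaller pseudocount, and leaving out a library gave 0 to 4. In kidney after the high dose, DESeq2 gave 3 at 8 h against 1, and leaving out a library gave 1 to 6, the highest without MS-100. At 24 h no low-count filter gave 3 and limma on log2(TPM + 1) gave 2 against 5, and leaving out a library gave 3 to 5, with 3 without MS-31, MS-34, MS-50, MS-51, MS-33, MS-36 or MS-56. In kidney after the low dose at 8 h, DESeq2 and limma on log2(TPM + 0.1) gave 1, and leaving out a library gave 0 to 1. The causes were not tested.

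Of 21 fold changes given above or looked at beside them that were called, 10 kept their call under every alternative run and 11 lost it under at least 1, and none changed sign. The list itself shared 200 transcripts with the one drawn with MS-1 kept, 180 with 1 TPM added in the ratio, 157 at a 10-fold and 151 at a 50-fold limit, and 193 with medians. No paired analysis was possible because the groups compared, within 1 organ, hold different rats. The labels do not say which libraries of different organs came from 1 rat, and no difference between organs was tested. Levels under 1 TPM in liver and kidney rest on few counts, and MS-1, MS-91 and the libraries numbered above 90 limit what can be read from them.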
